A study of Mus musculus with 8 samples.

Results

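Notch pathway genes are described here through 10 members across 8 mouse RNA sequencing libraries: the receptor genes Notch1, Notch2 and Notch3, the ligand genes Dll1, Dll3 and Jag1, the target genes Hes1, Hes5 and Hey1, and Rbpj, which encodes the DNA-binding partner of the cleaved receptor. The members were taken by gene symbol, and each symbol matched 1 of the 39009 entries in every gene table. All 10 were among the 17011 genes tested, and Hes5 was so through the neural stem cell library alone, the one library in which it reached FPKM 1. FPKM counts fragments per kilobase of transcript and scales to the mapped fragments, so levels of genes of unequal length can be set side by side.

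The libraries fall into 5 groups. Small molecules were used to turn somatic cells into chemically induced pluripotent stem cells (CiPSC). Lines 1, 2 and 3 came from neural stem cells (NSC-CiPSC), and lines 10 and 13 came from the small intestinal epithelium (IEC-CiPSC). The source cells were cultured neural stem cells at passage 2 (NSC) and primary cells of the small intestine (IEC), both from E13.5 embryos, with 1 library each. The reference for pluripotency was 1 library of R1 embryonic stem cells (ESC), a line with the strain label 129X1 x 129S1. The other 7 libraries carry strain labels of the form C57BL/6J-Tg(GOFGFP)11Imeg/RbrcxICR, in which the number runs from 11 in NSC to 17 in IEC-CiPSC line 13, so all of them share a GFP transgene that the ESC label lacks, and strain cannot be told apart from cell origin in comparisons with ESC. The compounds, their doses and the age of the lines are not given in the sources used here. The labels do not say whether lines of 1 origin came from separate animals, and the p-values here rest on how much such lines vary, which may be technical in part.

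Notch signalling passes between neighbouring cells. A Delta or Jagged ligand on one cell binds a Notch receptor on the next, ADAM proteases and the gamma-secretase complex cut the receptor, and the freed intracellular domain joins RBPJ and Mastermind proteins on DNA to switch on Hes and Hey genes. Those genes encode basic helix-loop-helix repressors. In the developing brain they hold back proneural genes and keep neural stem cells undifferentiated, while in the intestine Notch signalling favours absorptive over secretory fates. In mouse embryonic stem cells the pathway is dispensable for self-renewal and takes part when the cells leave pluripotency.

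The largest differences among the members separated the NSC library from all others. NSC had the highest level of 6 members in the series, with Hey1 at FPKM 67.0, Hes5 at 33.3, Jag1 at 28.9, Notch1 at 26.0, Notch3 at 20.3 and Dll3 at 2.41, and it had the lowest level of Rbpj, at 11.9. In NSC-CiPSC lines Notch1, Jag1, Hes5 and Hey1 fell and Rbpj rose, whereas in IEC-CiPSC lines Notch2 fell and Hes1 and Rbpj rose. No member passed the test between either set of lines and ESC.

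Promoter sequences of 8 of the 10 members were found in RefSeq (build GRCm38.p6), as windows of 250 bases before to 50 bases after an annotated start, which need not be the start in the gene tables, and Hes1 and Hey1 had no entry. The Hes5 and Rbpj windows are shown because they were the 2 member genes holding TGGGAA, the core recognised by RBPJ, and because Hes5 fell and Rbpj rose in the NSC-CiPSC lines. The Notch1 and Jag1 windows are shown for comparison, as genes that fell beside Hes5. Capitals mark TGGGAA, or TTCCCA where the core lies on the opposite strand. The Hes5 window is chr4:154960673-154960972 (plus strand), the first of 2 Rbpj windows is chr5:53590096-53590395 (plus strand), the Notch1 window is chr2:26503773-26504072 (minus strand) and the Jag1 window is chr2:137116471-137116770 (minus strand).
Hes5: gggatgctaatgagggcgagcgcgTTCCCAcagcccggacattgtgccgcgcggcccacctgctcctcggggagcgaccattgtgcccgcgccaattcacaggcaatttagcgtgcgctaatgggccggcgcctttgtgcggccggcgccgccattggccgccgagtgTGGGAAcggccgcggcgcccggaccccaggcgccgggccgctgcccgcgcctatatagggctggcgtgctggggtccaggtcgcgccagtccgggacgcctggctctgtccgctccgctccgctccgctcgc
Rbpj: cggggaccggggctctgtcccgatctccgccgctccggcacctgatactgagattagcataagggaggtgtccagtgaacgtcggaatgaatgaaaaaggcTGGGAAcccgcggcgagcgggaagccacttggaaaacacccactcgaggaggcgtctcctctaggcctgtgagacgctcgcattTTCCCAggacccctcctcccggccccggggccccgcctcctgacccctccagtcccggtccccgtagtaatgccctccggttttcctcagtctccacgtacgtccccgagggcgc
Notch1: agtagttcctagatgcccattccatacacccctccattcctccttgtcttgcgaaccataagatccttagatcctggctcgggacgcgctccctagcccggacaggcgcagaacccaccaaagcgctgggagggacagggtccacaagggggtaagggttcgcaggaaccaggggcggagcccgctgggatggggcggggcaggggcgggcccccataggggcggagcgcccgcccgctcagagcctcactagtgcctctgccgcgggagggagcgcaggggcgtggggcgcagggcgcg
Jag1: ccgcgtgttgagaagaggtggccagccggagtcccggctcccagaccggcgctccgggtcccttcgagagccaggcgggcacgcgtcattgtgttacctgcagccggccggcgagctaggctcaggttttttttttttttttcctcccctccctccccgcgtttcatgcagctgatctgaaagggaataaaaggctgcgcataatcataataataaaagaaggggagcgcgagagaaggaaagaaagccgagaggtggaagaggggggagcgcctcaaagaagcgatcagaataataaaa
The 2 cores of the Hes5 window begin 226 bases upstream of the start on the minus strand and 82 bases upstream on the plus strand. In the Rbpj window the cores begin 149 bases upstream on the plus strand and 65 bases upstream on the minus strand. Searched on both strands, TGGGAA was in 25.56% of all 32851 RefSeq windows of this length, and 3.79% held it at least 2 times. By gene, TGGGAA was found for 2 of the 8 members with a window, against 28.31% of 27025 genes. CACNAG, the N box bound by Hes proteins, was found for 4 of the 8 (Notch1, Notch2, Notch3 and Dll1). It was found for 46.07% of genes and in 42.48% of all windows. CACGTG, an E box bound by Hey proteins, was found for 0 of the 8, against 8.093% of genes and 7.15% of all windows. The Notch1 window holds CACNAG 3 times, and 2 of these matches, on opposite strands at 3 bases and 1 base upstream, share letters; no other matches overlapped in the members' windows. These matches describe letters in a window, and binding was not measured.

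The libraries were of like depth, from 0.909 to 1.04 times that of ESC, an estimate made from the intervals in the files. FPKM summed to between 661114 and 771389, and mitochondrial transcripts took from 1.94% (NSC-CiPSC line 2) to 11.6% (NSC) of that sum. Marker genes of pluripotent cells summed to between 5149 and 8641 FPKM in the 5 lines and ESC, with 8 of 8 at FPKM 10 or more, against 11.6 FPKM in NSC and 14.3 in IEC. Neural stem cell markers summed to between 88.1 and 143 FPKM in the lines, against 6387 in NSC, where 6 of 8 reached FPKM 10. In the library labelled IEC, intestinal epithelial markers were sparse: 2 of 9 reached FPKM 10 (Fabp1 at 109 and Epcam at 15.9), Vil1 was at 3.14 and Cdx2 at 0.0912, and the list summed to 133 FPKM. In the same library 8 of 8 mesenchyme markers (7020 FPKM), 8 of 9 smooth muscle and mural markers (4054 FPKM) and 7 of 8 leukocyte markers (3933 FPKM) reached FPKM 10, and 0 of 10 endothelial markers did (7.22 FPKM, with Emcn listed at 0). Most defining markers of the labelled cell type were therefore low in this library, while markers of other cell types were high, and the name IEC below is its label only. What part these other cells have in the Notch levels of IEC was not tested. In bulk libraries fewer cells of a type and less RNA per cell cannot be told apart, and this holds for every level below.

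**Figure D1:**
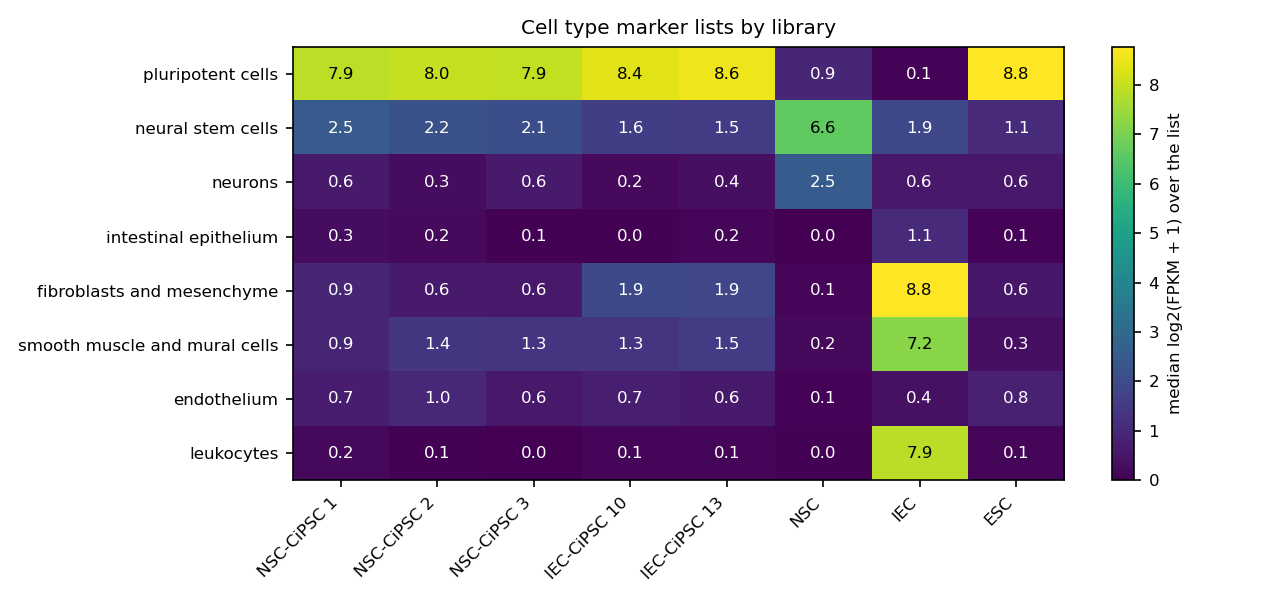
Median log2(FPKM + 1) over each list of cell type markers (rows) in each library (columns, lines first, then source cells and ESC), printed in each cell. Pluripotency markers are high in the 5 lines and ESC, neural stem cell markers in NSC, and mesenchyme, smooth muscle and leukocyte markers in IEC, where 2 of 9 intestinal epithelial markers reached FPKM 10.

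Receptors differed in which gene led. Notch1 (chr2:26457903-26516663, minus strand, mm10 as in the gene tables) had FPKM 5.01, 6.62 and 5.85 in NSC-CiPSC lines 1, 2 and 3, against 26.0 in NSC. It had FPKM 4.13 and 4.14 in IEC-CiPSC lines 10 and 13, against 2.14 in IEC, and ESC had 6.28. All 3 NSC-CiPSC lines lay far below NSC, and both IEC-CiPSC lines lay above IEC. In NSC-CiPSC lines Notch1 fell, with a mean of 5.83 ± 0.81 (SD, n = 3), 4.47-fold below NSC. The difference of log2(FPKM + 1), the scale of every fold change tested here, was -1.99 ± 0.18 (SE; limma, adjusted p = 0.00177 over all genes tested). In IEC-CiPSC lines the difference was 0.71 ± 0.19 (limma, adjusted p = 0.0323), which passed the test on p and stayed under the 2-fold that a call also required. The deposited confidence interval for Notch1 was wide, from 0 to 5.74 FPKM in IEC. Its half-width was 16.2% of the level in NSC, 32% in ESC and 168% in IEC. In NSC-CiPSC lines 1, 2 and 3 it was 82.5%, 65.4% and 31.0%, and in IEC-CiPSC lines 10 and 13 it was 90.1% and 90.6%.

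Notch2, a receptor that shares ligands with Notch1 (chr3:98013538-98150367, plus strand), had its highest level in IEC. Its FPKM was 3.91, 3.40 and 3.89 in NSC-CiPSC lines 1, 2 and 3, against 3.48 in NSC, so the lines lay on both sides of their source. In IEC-CiPSC lines 10 and 13 it was 2.04 and 2.22, against 12.4 in IEC, and ESC had 2.83. Notch2 fell in IEC-CiPSC lines to a mean 5.80-fold below IEC, a log2 difference of -2.09 ± 0.14 (limma, adjusted p = 0.00069), and the difference between NSC-CiPSC lines and NSC was 0.08 ± 0.14 (adjusted p = 0.673). Between the 2 sets of lines the 3 NSC-CiPSC lines were above both IEC-CiPSC lines, by 0.59 ± 0.11 on the log2 scale (limma, adjusted p = 0.0509), which was under 2-fold and did not pass on p.

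Notch3, the receptor known best from vascular smooth muscle and mural cells (chr17:32120820-32166880, minus strand), had FPKM 7.09, 12.3 and 10.0 in NSC-CiPSC lines 1, 2 and 3, against 20.3 in NSC. It had FPKM 9.86 and 7.34 in IEC-CiPSC lines 10 and 13, against 4.32 in IEC, and ESC had 7.81. The lines of either origin overlapped each other and ESC, below NSC and above IEC. Neither route passed the test: the log2 difference was -1.01 ± 0.34 in NSC-CiPSC lines (limma, adjusted p = 0.0674) and 0.84 ± 0.36 in IEC-CiPSC lines (adjusted p = 0.115). In IEC the Notch3 level was low while 8 of 9 smooth muscle and mural markers reached FPKM 10.

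**Figure D2:**
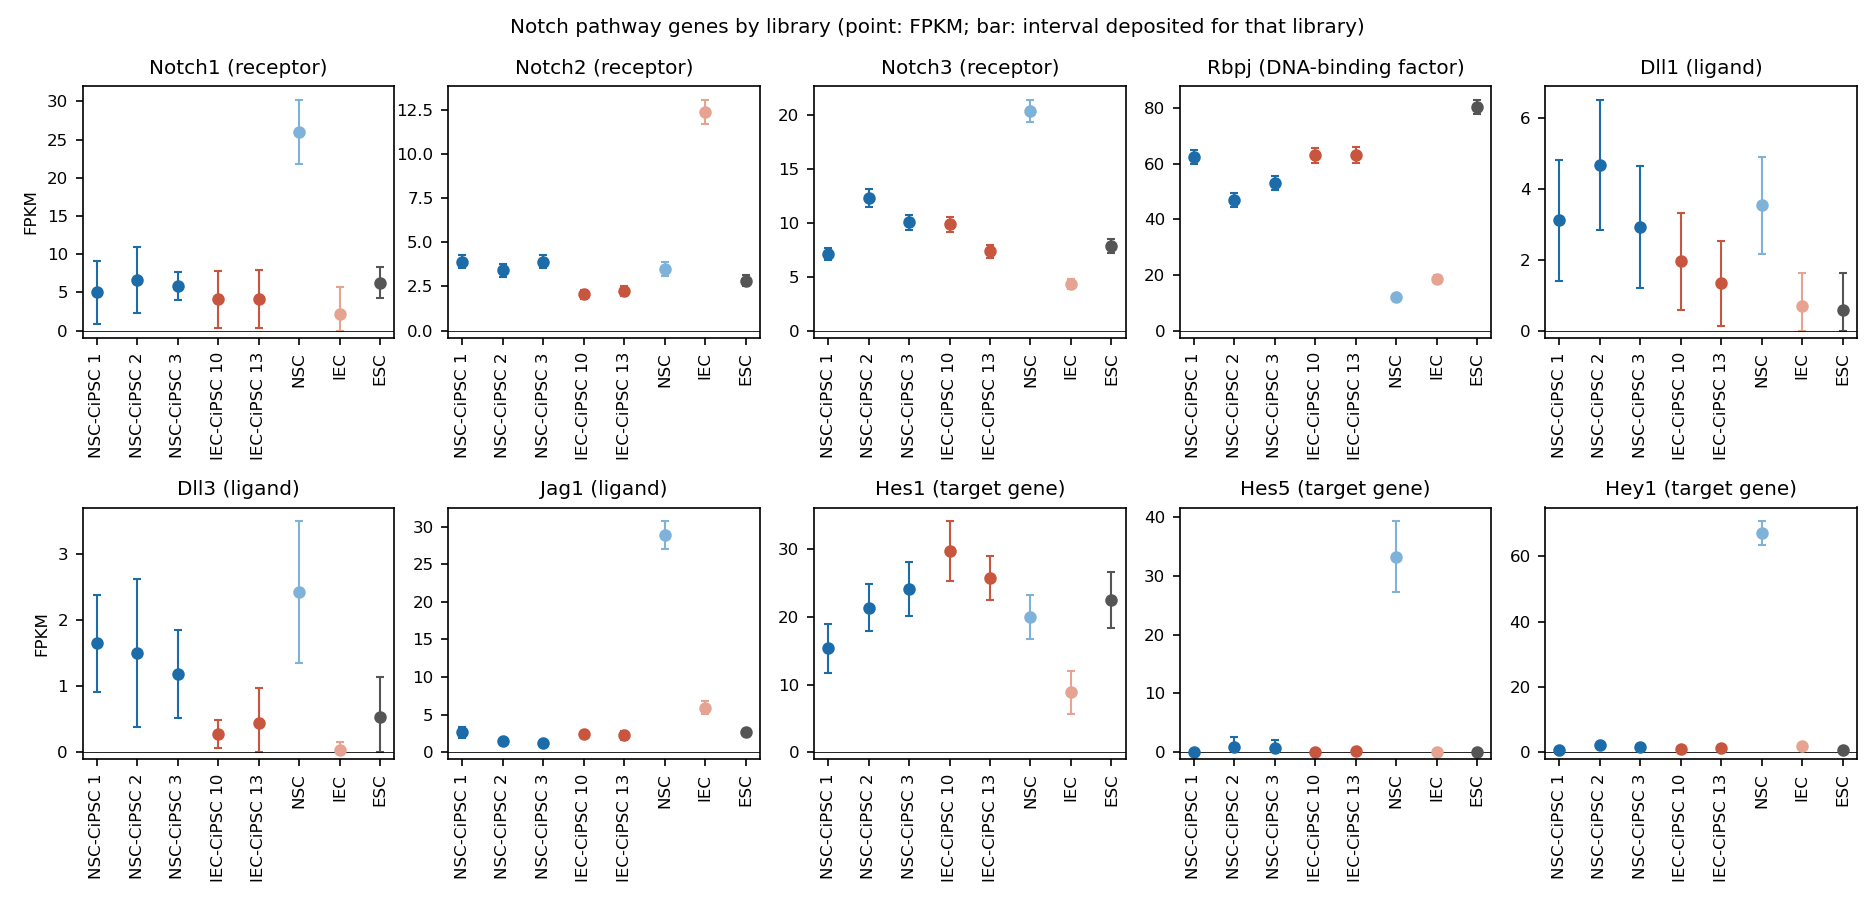
FPKM of the 10 members (1 panel each, vertical axis in FPKM on its own linear scale) in each of the 8 libraries on the horizontal axis. Points are the deposited values and bars the confidence interval deposited for that library, not replicate error. Hey1 (67.0), Hes5 (33.3), Jag1 (28.9) and Notch1 (26.0) stand out in NSC, Notch2 (12.4) in IEC, and Rbpj is lowest in NSC (11.9) and IEC (18.7).

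Among the ligands, Jag1 had the widest range. Jag1, a Jagged-type ligand (chr2:137081456-137116644, minus strand), had FPKM 2.67, 1.52 and 1.26 in NSC-CiPSC lines 1, 2 and 3, against 28.9 in NSC. Its FPKM was 2.36 and 2.23 in IEC-CiPSC lines 10 and 13, against 5.90 in IEC, and ESC had 2.62. Each of the 5 lines lay below its source. Jag1 fell in NSC-CiPSC lines, 15.9-fold on means, with a log2 difference of -3.44 ± 0.32 (limma, adjusted p = 0.00197). In IEC-CiPSC lines the difference was -1.07 ± 0.33 and narrowly missed the threshold (limma, adjusted p = 0.0525). It passed with genes at FPKM 5 or more (adjusted p = 0.0392), with the fit limited to both groups (0.0191) and without NSC-CiPSC line 1 (0.00795), and over all alternatives its adjusted p ran from 0.00795 to 0.268.

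Dll1, a Delta-type ligand (chr17:15367354-15376872, minus strand), had FPKM 3.12, 4.68 and 2.92 in NSC-CiPSC lines 1, 2 and 3, against 3.55 in NSC. Its FPKM was 1.96 and 1.33 in IEC-CiPSC lines 10 and 13, against 0.698 in IEC, and ESC had 0.596. Here all 5 lines lay above ESC, and the NSC level lay inside the range of the NSC-CiPSC lines. Against ESC the log2 difference was 1.499 ± 0.29 in NSC-CiPSC lines (limma, unadjusted p = 0.00595, adjusted p = 0.0801) and 0.72 ± 0.30 in IEC-CiPSC lines (adjusted p = 0.258). Dll1 was thus the member with the largest difference from ESC, 6.00-fold on means in NSC-CiPSC lines, and it did not pass the test. The deposited confidence interval of Dll1 in ESC ran from 0 to 1.62 FPKM, so the size of that fold is poorly known.

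Dll3, a divergent Delta family member known to inhibit Notch within its own cell rather than activate it in a neighbour (chr7:28293553-28302238, minus strand), was low throughout. Its FPKM was 1.64, 1.498 and 1.18 in NSC-CiPSC lines 1, 2 and 3, against 2.41 in NSC. In IEC-CiPSC lines 10 and 13 it was 0.272 and 0.439, against 0.0389 in IEC, and ESC had 0.524. The levels of the 3 NSC-CiPSC lines lay above both IEC-CiPSC lines and above ESC. Deposited confidence intervals did overlap, such as 0.512 to 1.85 FPKM in NSC-CiPSC line 3, 0 to 0.964 in IEC-CiPSC line 13 and 0 to 1.13 in ESC. In IEC the interval ran from 0 to 0.147 FPKM. Between the 2 sets of lines the log2 difference was 0.85 ± 0.11 (limma, adjusted p = 0.0288), which passed on p and stayed under 2-fold on the log2(FPKM + 1) scale. With a pseudocount of 0.1 the difference was 1.77 (adjusted p = 0.037) and counted as a call, and over all alternatives the adjusted p ran from 0.0288 to 0.176. In IEC-CiPSC lines against IEC the difference was 0.38 ± 0.15 (limma, adjusted p = 0.0937), and with a pseudocount of 0.1 it was 1.69 and counted as a call (adjusted p = 0.0161, range over alternatives 0.0161 to 0.262). Against NSC the difference in NSC-CiPSC lines was -0.49 ± 0.14 (limma, adjusted p = 0.046), also under 2-fold.

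Of the targets, Hey1 and Hes5 were high in NSC alone and Hes1 was shared. Hey1, a repressor of the Hey family (chr3:8663362-8667039, minus strand), had FPKM 0.533, 2.31 and 1.66 in NSC-CiPSC lines 1, 2 and 3, against 67.0 in NSC. Its FPKM was 0.986 and 1.12 in IEC-CiPSC lines 10 and 13, against 1.74 in IEC, and ESC had 0.683. The 5 lines, IEC and ESC all lay between 0.533 and 2.31. Hey1 fell in NSC-CiPSC lines, 44.6-fold on means, with a log2 difference of -4.84 ± 0.47 (limma, adjusted p = 0.00229). In IEC-CiPSC lines the difference was -0.42 ± 0.50 (adjusted p = 0.515).

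Hes5, the Hes family repressor most typical of neural stem cells (chr4:154960923-154962371, plus strand), was listed at 0, 0.876 and 0.684 FPKM in NSC-CiPSC lines 1, 2 and 3, against 33.3 FPKM in NSC. In IEC-CiPSC lines 10 and 13 it was listed at 0 and 0.176 FPKM, and it was listed at 0 in IEC and ESC. The deposited confidence interval in NSC ran from 27.3 to 39.3 FPKM, and no other library reached FPKM 1. In NSC-CiPSC lines Hes5 fell, with a log2 difference of -4.55 ± 0.40 (limma, adjusted p = 0.00182). Hes5 entered the tests through the NSC library alone and so had to differ from NSC, and its p is no independent support; with no filter on low values the adjusted p was 0.00355. Gm20421, a transcript on the opposite strand that overlaps Hes5, had FPKM 0.233 in NSC-CiPSC line 2, against 1.76 in NSC, and was listed at 0 in the other libraries. The labels do not say that reads were counted by strand, so reads of the overlap cannot be assigned to one of the genes.

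Hes1, the Hes family repressor expressed most widely (chr16:30064384-30067796, plus strand), had FPKM 15.4, 21.4 and 24.1 in NSC-CiPSC lines 1, 2 and 3, against 19.99 in NSC. It reached FPKM 29.7 and 25.7 in IEC-CiPSC lines 10 and 13, against 8.83 in IEC, and ESC had 22.5. Both IEC-CiPSC lines lay above every other library, and NSC-CiPSC lines lay on both sides of NSC and of ESC. Hes1 rose in IEC-CiPSC lines, 3.14-fold on means, with a log2 difference of 1.54 ± 0.29 (limma, adjusted p = 0.0129). This call rested on having both lines, since the adjusted p was 0.0638 without line 10 and 0.0502 without line 13. In NSC-CiPSC lines the difference was -0.00 ± 0.28 (adjusted p = 1).

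Rbpj, the DNA-binding factor common to all Notch receptors (chr5:53555779-53657445, plus strand), moved the same way in both routes. Its FPKM was 62.4, 46.8 and 53.1 in NSC-CiPSC lines 1, 2 and 3, against 11.9 in NSC. In IEC-CiPSC lines 10 and 13 it was 63.0 and 63.3, against 18.7 in IEC, and ESC had 80.4. All 5 lines lay above both source libraries and below ESC. Rbpj rose in NSC-CiPSC lines, 4.54-fold on means, with a log2 difference of 2.08 ± 0.17 (limma, adjusted p = 0.0015). It rose in IEC-CiPSC lines 3.38-fold, with a log2 difference of 1.71 ± 0.18 (limma, adjusted p = 0.00243). Against ESC the difference was -0.57 ± 0.17 in NSC-CiPSC lines (adjusted p = 0.168). RefSeq lists 3 pseudogenes of Rbpj, and how reads shared with them were assigned is not given in the sources used here.

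**Figure D3:**
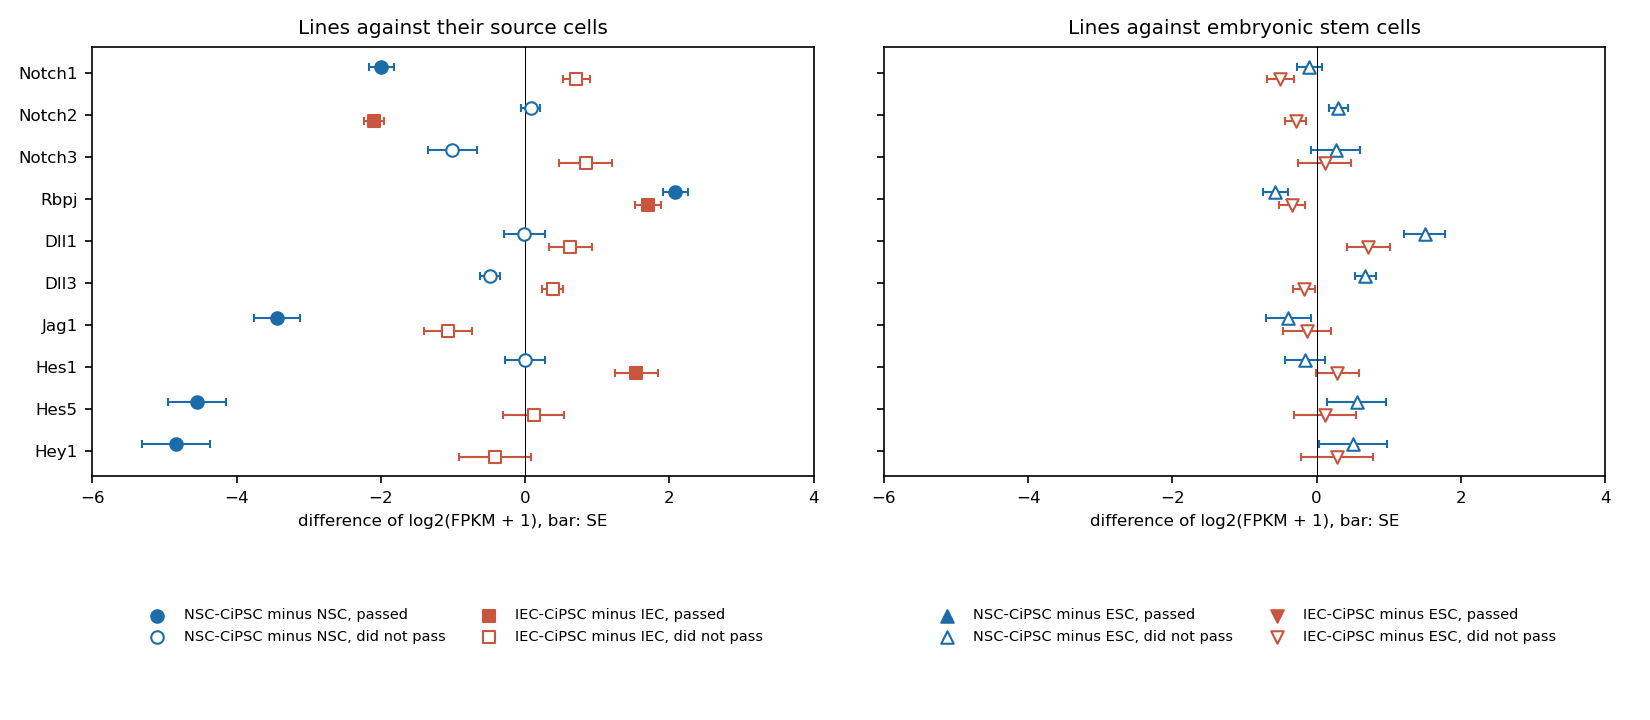
Difference of log2(FPKM + 1) for each member (rows), with bars for the SE from the model, in lines against their source cells (left) and against ESC (right). Filled symbols passed the test and open ones did not; on the left 5 members are filled for NSC-CiPSC lines and 3 for IEC-CiPSC lines, and on the right none is filled.

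In NSC-CiPSC lines against NSC, 5 of 10 members were called, with 1 higher and 4 lower, where 39.0% of all genes tested were called, 18.3% higher and 20.7% lower. A call needed an adjusted p under 0.05 and a difference of at least 2-fold. The median difference of the members was -0.75 against 0.03 for all genes tested. The members called were Rbpj on the higher side and Notch1, Jag1, Hes5 and Hey1 on the lower side. Without Hes5, which the filter on low values admitted through NSC alone, the count was 4 of 9. The same 5 members were called under every alternative run, which include leaving out each line in turn. Of the other 5, Notch3 and Dll3 had lower levels in all 3 lines than in NSC, and Notch2, Dll1 and Hes1 had lines on both sides of NSC.

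In IEC-CiPSC lines against IEC, 3 of 10 members were called, with 2 higher and 1 lower, where 45.3% of all genes tested were called, 19.1% higher and 26.2% lower. The median difference of the members was 0.51 against -0.03 for all genes tested. Scaling mattered here: quantile normalization moved the median of all genes to 0.15 and the share of calls that were higher to 52.6%, against 42.2% before. Under it 6 members were called, with Notch1 (1.30), Notch3 (1.38) and Dll1 (1.08) added on the higher side.

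Against ESC, limma called 0 of 10 members in NSC-CiPSC lines, where 2.81% of all genes tested were called (0.946% higher, 1.86% lower), and 3 members had an unadjusted p under 0.05 (Dll1, Dll3 and Rbpj). In IEC-CiPSC lines limma also called 0 of 10 members against ESC, where 3.36% of all genes were called (1.63% higher, 1.73% lower), and 0 members had an unadjusted p under 0.05. Both comparisons use the same ESC library. The number of genes called moved strongly with single lines: for NSC-CiPSC lines it was 478, and it was 720, 286 or 191 without NSC-CiPSC line 1, 2 or 3 and 187 or 192 without IEC-CiPSC line 10 or 13. For IEC-CiPSC lines it was 572, and it was 890, 377 or 209 without NSC-CiPSC line 1, 2 or 3 and 159 or 153 without IEC-CiPSC line 10 or 13. A difference that missed the threshold does not show equal levels. Standard errors ran from 0.14 to 0.50 on the log2 scale, and differences of several standard errors could go uncalled. Dll1 in NSC-CiPSC lines, at 1.499 ± 0.29, was such a case (limma, adjusted p = 0.0801).

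Between NSC-CiPSC and IEC-CiPSC lines limma called 0 of 10 members, where 4.32% of all genes tested were called, 1.56% higher and 2.76% lower (735 genes, and 789, 356 or 142 without NSC-CiPSC line 1, 2 or 3 and 123 or 99 without IEC-CiPSC line 10 or 13), and 4 members had an unadjusted p under 0.05 (Notch1, Notch2, Dll1 and Dll3). In each of these 4 genes all 3 NSC-CiPSC lines lay above both IEC-CiPSC lines. In Hes1 and Rbpj both IEC-CiPSC lines lay above all 3 NSC-CiPSC lines, with log2 differences of -0.45 ± 0.22 (adjusted p = 0.27) and -0.23 ± 0.14 (adjusted p = 0.352). Notch3, Jag1, Hes5 and Hey1 overlapped between the 2 sets of lines.

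For NSC and IEC, with 1 library each, the sizes of the differences were taken with no test. Past 4-fold on the log2(FPKM + 1) scale, and with FPKM 5 or more in the higher library, 5 members were higher in NSC and 0 were lower, where 13.4% of all genes tested passed, 4.39% higher and 8.99% lower in NSC. Hes5 entered the tests through NSC, so it could only be higher there. The 5 were Hes5 (FPKM 33.3 in NSC, listed at 0 in IEC), Hey1 (67.0 in NSC, 1.74 in IEC), Notch1 (26.0 in NSC, 2.14 in IEC), Jag1 (28.9 in NSC, 5.90 in IEC) and Notch3 (20.3 in NSC, 4.32 in IEC). Notch2 ran the other way, at 3.48 in NSC and 12.4 in IEC, short of 4-fold. With a pseudocount of 5 the count was 3, as Notch3 and Jag1 no longer passed.

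The change in the NSC route minus the change in the IEC route was tested for each gene, and 6 of 10 members were called, where 30.5% of all genes tested were called, 17.6% higher and 12.9% lower in the NSC route. Of these 6, Notch1, Jag1, Hes1, Hes5 and Hey1 had the lower value in the NSC route, and Notch2 had the higher value there. This test takes in the whole NSC minus IEC difference, which rests on 1 library of each, so it repeats the contrast of the source cells. Without IEC-CiPSC line 10, and likewise without line 13, 3 members were called, as Jag1, Hes1 and Hey1 no longer passed. Without Hes5 the reported count was 5 of 9. With a pseudocount of 0.1 Hes5 was not called (adjusted p = 0.0901) and Dll3 was (-2.41, adjusted p = 0.0255), where its reported difference was -0.87 (adjusted p = 0.0374). Under quantile normalization 47.5% of all calls in this test were higher, against 57.6% before. Rbpj rose in both routes, and the difference between its rises was 0.38 ± 0.25 (limma, adjusted p = 0.306).

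Within each class the composition changed with cell type. Of the summed FPKM of the 3 receptors, Notch3 held 44.3% to 55.0% in NSC-CiPSC lines, against 40.8% in NSC, where Notch1 led with 52.2%. In IEC-CiPSC lines Notch3 held 61.5% and 53.5%, and in IEC Notch2 led with 65.7%. In ESC Notch3 held 46.2%. Of the summed ligands, Jag1 held 19.8% to 35.9% in NSC-CiPSC lines, against 82.9% in NSC, and 51.4% and 55.7% in IEC-CiPSC lines, against 88.9% in IEC. In ESC Jag1 held 70.04%. Among these 3 ligands Dll1 led in NSC-CiPSC lines with 41.9% to 60.8%. Jag2, whose levels are given below, is not in this sum. It was above Dll1 and above Jag1 in every line and in ESC. Of the summed targets, Hes1 held 87.0% to 97.1% in the lines and ESC and 83.6% in IEC, whereas in NSC Hey1 held 55.7%, Hes5 27.7% and Hes1 16.6%. The summed targets were between 15.9 and 30.7 FPKM in the lines and ESC, against 120 FPKM in NSC and 10.6 FPKM in IEC. These shares describe single libraries and carry no test.

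**Figure D4:**
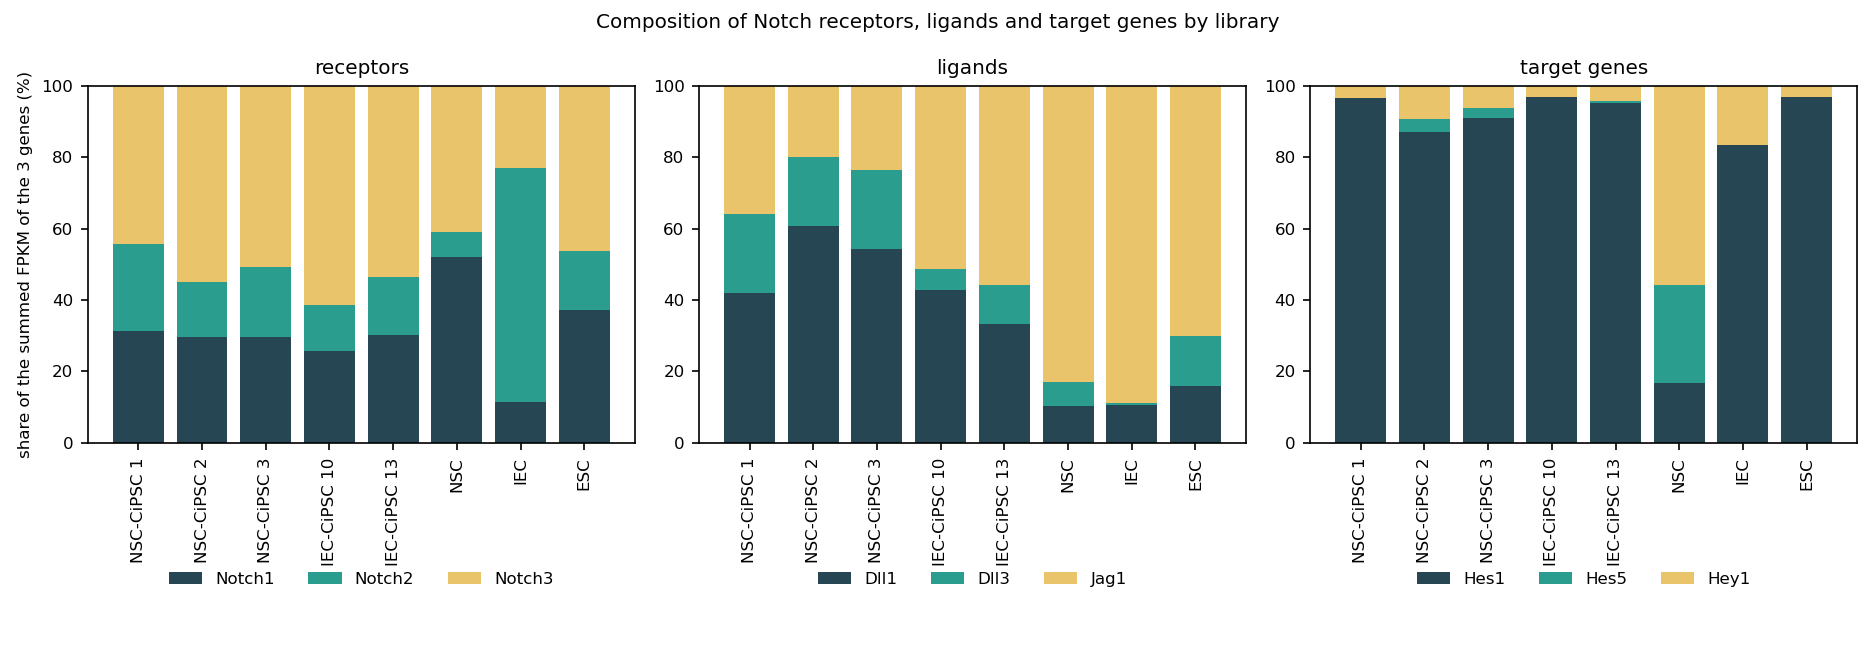
Share of the summed FPKM of the 3 receptors, the 3 ligands and the 3 targets (panels, vertical axis in percent) that each gene holds in each library. Hes1 holds 87.0% or more of the 3 targets in the lines and ESC, against 16.6% in NSC. Jag1 holds 19.8% to 35.9% of the 3 ligands in NSC-CiPSC lines, against 82.9% in NSC. The ligand Jag2 is not in the sum, and its level was above that of each of these 3 ligands in every line and in ESC.

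Beyond the 10 members, 78 further pathway genes in 9 lists were followed, of which 68 entered the tests. In NSC-CiPSC lines against NSC, 10 rose and 21 fell (45.6% called, median -0.46), where 39.0% of all genes tested were called, 18.3% higher and 20.7% lower. In IEC-CiPSC lines against IEC, 8 rose and 20 fell (41.2% called, median -0.52), where 45.3% of all genes tested were called, 19.1% higher and 26.2% lower. Both shares called were near those of all genes, and the lists below are small, so their counts are descriptions to be read against these shares. The counts include Dner, which reached FPKM 1 in NSC alone and so had to fall in the NSC route. Which other listed genes entered the tests through 1 library alone was not tallied. Against ESC limma called 0 of 68 in both sets of lines, with 10 genes for NSC-CiPSC lines and 12 for IEC-CiPSC lines at an unadjusted p under 0.05. Between NSC-CiPSC and IEC-CiPSC lines 1 of 68 was called, Jag2.

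Among other receptors and ligands (6 of 8 tested), 1 rose and 2 fell in the NSC route, and 2 rose and 2 fell in the IEC route. Jag2, a Jagged-type ligand, had FPKM 6.50, 7.92 and 8.48 in NSC-CiPSC lines 1, 2 and 3, against 0.132 in NSC, and rose by 2.92 ± 0.21 (limma, adjusted p = 0.0011). It had FPKM 3.16 and 2.42 in IEC-CiPSC lines 10 and 13, against 0.657 in IEC, and ESC had 5.78. So where Jag1 fell in the NSC route, Jag2 rose. Jag2 was also called higher in the IEC route (1.19 ± 0.22, limma, adjusted p = 0.0127), where the Jag1 difference of -1.07 narrowly missed the threshold. For Jag2 all 3 NSC-CiPSC lines lay above both IEC-CiPSC lines (1.19 ± 0.17, limma, adjusted p = 0.0321). Dner and Cntn1, neural membrane proteins reported as Notch ligands, were at most 0.344 and 0.137 FPKM in NSC-CiPSC lines, against 84.5 and 63.7 FPKM in NSC. Dner reached FPKM 1 in NSC alone. Like Hes5, it entered the tests through NSC and so had to fall in this route. Neuron markers summed to between 5.43 and 12.0 FPKM in NSC-CiPSC lines, against 168 in NSC (2 of 7 at FPKM 10 or more), and their part in these levels was not tested. Dlk1, a non-canonical ligand that lacks the domain Delta proteins use to activate Notch, had FPKM 4.61 and 5.88 in IEC-CiPSC lines 10 and 13, against 1941 in IEC. Mfap2, a microfibril protein of the extracellular matrix, had FPKM 0.138 in both of those lines, against 325 in IEC.

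Of receptor cleavage genes, 6 of 10 were called lower and 0 higher in each route. Of all genes tested, 20.7% were called lower and 18.3% higher in the NSC route, and 26.2% and 19.1% in the IEC route. The medians of the list were -1.19 in the NSC route and -1.43 in the IEC route. Adam10, one of the ADAM proteases that cut the receptor, had FPKM 7.35, 13.2 and 10.7 in NSC-CiPSC lines 1, 2 and 3, against 61.8 in NSC (log2 difference -2.49 ± 0.32, limma, adjusted p = 0.00482). Aph1a, a gamma-secretase subunit, was at 19.8 to 22.9 FPKM in NSC-CiPSC lines, against 84.2 in NSC (-1.93 ± 0.11, adjusted p = 0.000555). In the IEC route Ncstn, the gamma-secretase subunit nicastrin, had FPKM 15.3 and 14.6 in IEC-CiPSC lines 10 and 13, against 51.5 in IEC (-1.72 ± 0.12, adjusted p = 0.000782). Adam17, a related protease, had 9.50 and 9.43 FPKM in those lines, against 27.3 in IEC (-1.44 ± 0.09, adjusted p = 0.000611). Adam10, Aph1a, Ncstn and Adam17 were each called lower in both routes. The log2 differences were -1.43 for Adam10 and -1.10 for Aph1a in the IEC route. They were -1.33 for Ncstn and -1.20 for Adam17 in the NSC route. Aph1b in the NSC route (-2.94) and Aph1c in the IEC route (-3.07) also fell, but these are near-identical copies between which reads may be split.

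Receptor glycosylation genes went both ways, with 2 of 6 higher and 1 of 6 lower in each route, against 18.3% and 20.7% of all genes in the NSC route and 19.1% and 26.2% in the IEC route. Lfng, the Fringe enzyme that tunes which ligands a receptor answers to, had FPKM 2.56, 1.60 and 1.60 in NSC-CiPSC lines 1, 2 and 3, against 76.1 in NSC (-4.74 ± 0.24, limma, adjusted p = 0.000446). It had FPKM 1.08 and 1.12 in IEC-CiPSC lines 10 and 13, against 5.74 in IEC (-1.68 ± 0.25, adjusted p = 0.00648). Mfng, another Fringe enzyme, and Poglut1, which adds O-glucose to the receptor, rose in both routes, Mfng by 1.89 in the NSC route and 2.05 in the IEC route, and Poglut1 by 2.05 in the NSC route and 1.19 in the IEC route. Of genes for ligand ubiquitination and endocytosis 1 of 6 rose and 3 fell in the NSC route, among them Epn2, an endocytic adaptor gene, at 19.3 to 25.1 FPKM in NSC-CiPSC lines, against 104 in NSC. In the IEC route 0 rose and 1 of 6 fell, Neurl1b, a ubiquitin ligase gene named after its values were seen. Neurl1b was called lower in both routes, with log2 differences of -1.98 in the IEC route and -2.85 in the NSC route.

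In the nucleus, 1 of 8 coactivator genes rose and 1 fell in the NSC route, and 1 rose and 2 fell in the IEC route. Maml2, a Mastermind coactivator, was at 0.203 to 0.920 FPKM in NSC-CiPSC lines, against 17.8 in NSC (-3.71 ± 0.31, limma, adjusted p = 0.0015). It was at 0.110 and 0.197 FPKM in IEC-CiPSC lines 10 and 13, against 9.20 in IEC (-3.14 ± 0.32, adjusted p = 0.00218). Kat2a, an acetyltransferase gene, rose in both, by 1.34 in the NSC route and 1.44 in the IEC route. Of corepressor genes 3 of 16 rose and 2 fell in the NSC route and 3 rose and 4 fell in the IEC route. For both lists the shares of all genes tested were 18.3% higher and 20.7% lower in the NSC route. In the IEC route they were 19.1% higher and 26.2% lower. Hdac1, a histone deacetylase gene, was at 267 to 275 FPKM in NSC-CiPSC lines, against 69.7 in NSC, and 210 and 231 FPKM in IEC-CiPSC lines, against 57.2 in IEC.

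Negative regulators of the pathway, with 2 of 10 higher and 4 lower in the NSC route (all genes 18.3% and 20.7%), included the target-gene inhibitor Nrarp. Nrarp, itself induced by Notch, had FPKM 1.19, 1.72 and 2.41 in NSC-CiPSC lines 1, 2 and 3, against 25.7 in NSC (-3.29 ± 0.28, limma, adjusted p = 0.00168). Dtx4, a Deltex ubiquitin ligase gene, was at 0.677 to 0.819 FPKM in NSC-CiPSC lines, against 35.1 in NSC, and fell by 4.35 ± 0.12 on the log2 scale (adjusted p = 9.65e-05). In the IEC route 0 of 10 rose and 3 fell, and Bcl6, a repressor of Notch targets, was at 0.508 and 0.334 FPKM in IEC-CiPSC lines, against 5.41 in IEC. Dtx4 and Bcl6 were each called lower in both routes. The log2 difference was -2.11 for Dtx4 in the IEC route and -1.63 for Bcl6 in the NSC route. Of other Hes and Hey genes, 2 of 6 were tested and 1 fell in each route. Hes6, a Hes family member that counteracts Hes1, had 15.8, 14.5 and 13.2 FPKM in NSC-CiPSC lines 1, 2 and 3, against 81.2 in NSC (-2.41 ± 0.17, adjusted p = 0.000965).

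**Figure D5:**
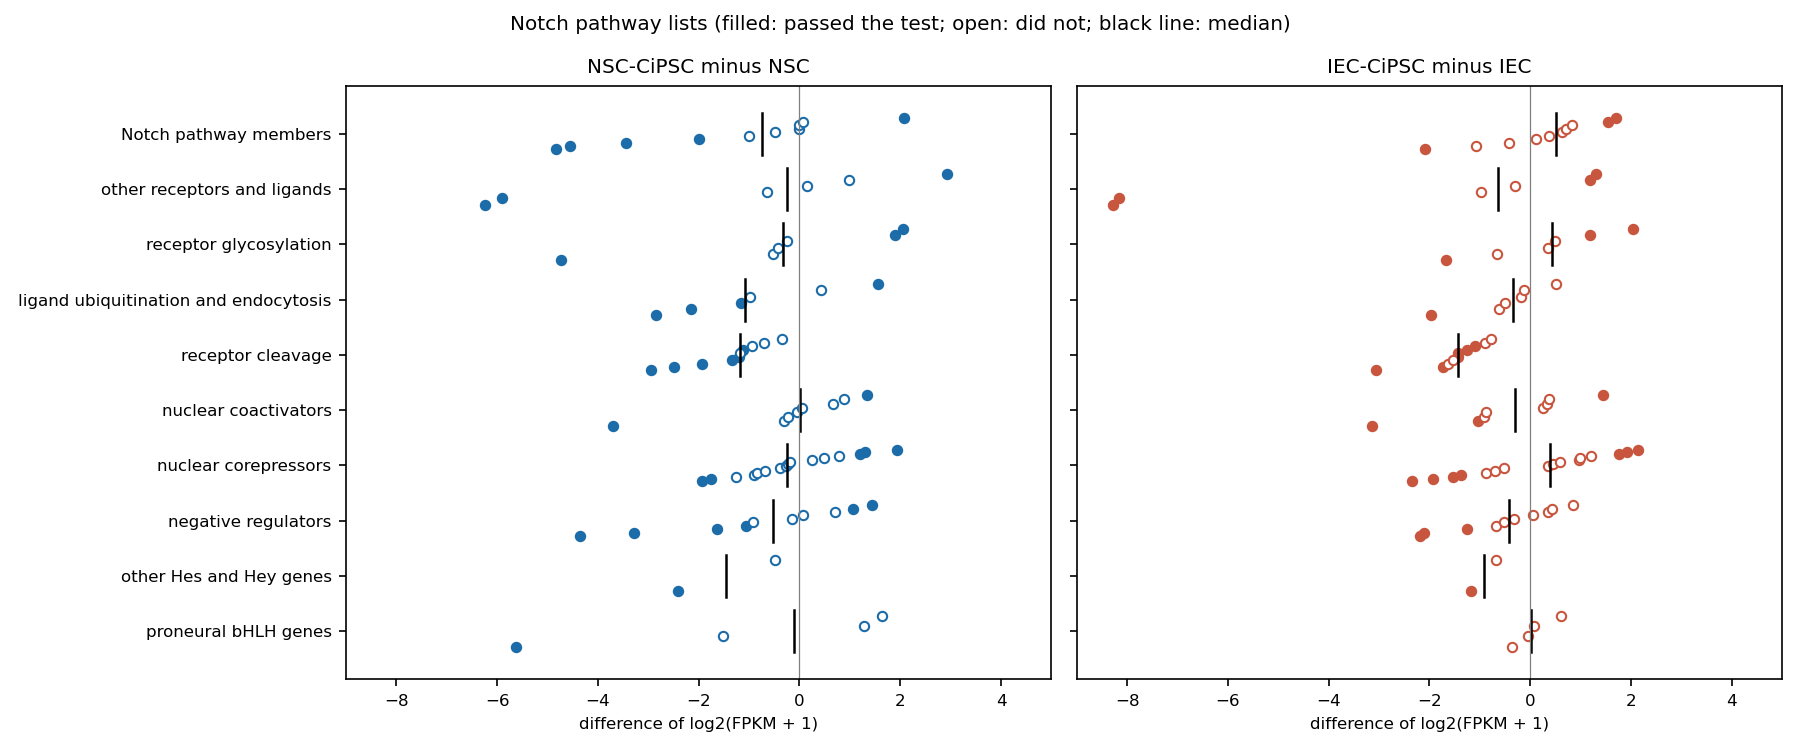
Difference of log2(FPKM + 1) of each tested gene (points) in the member list and the 9 other pathway lists (rows), for NSC-CiPSC lines against NSC (left) and IEC-CiPSC lines against IEC (right). Filled points passed the test, open points did not, and black lines are list medians. In the receptor cleavage list 6 of 10 genes are filled on each side, all below 0. Of all genes tested, 20.7% were called lower on the left and 26.2% on the right.

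Over the 8 libraries, the genes most like each member in level were sought among 11671 genes that reached FPKM 5 in a library, by Pearson's r on log2(FPKM + 1). With 8 points that share libraries, and a lone source library often far from the rest, r describes the likeness and carries no test. Hes5 was nearest to Ptchd2 (r = 0.998), which was at most 0.84 FPKM in the lines, IEC and ESC, against 35.7 in NSC, and then to Ppp1r16b (0.996). Notch1 was nearest to Sox3 (0.994), a neural progenitor transcription factor gene at 2.92 to 3.79 FPKM in NSC-CiPSC lines, against 44.997 in NSC, and then to Depdc1a (0.993). Hey1 was nearest to Sdhb (0.997) and Pde11a (0.994), and Jag1 to Opa3 (0.996) and Tada2b (0.990). Notch2, high in IEC, was nearest to Fkbp10 (0.989) and Sh3bgr (0.987), which were at 84.9 and 28.5 FPKM in IEC. Rbpj, low in both source libraries, was nearest to Thumpd1 (0.997) and N4bp3 (0.994). Hes1 was nearest to Phkg1 (0.984) and Anp32a (0.982), Notch3 to Ndufb8 (0.985) and Fbrsl1 (0.977), Dll1 to Manf (0.984) and Ppp5c (0.964), and Dll3 to Slc25a3 (0.985) and Phf14 (0.975).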

How the data were processed

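The gene tables hold FPKM values as deposited by the authors. The submitters' processing notes name TopHat, Cufflinks and the build mm10, with no versions, and neither the annotation nor strand handling is given in the sources used here. RNA came from RNeasy Plus Mini columns and libraries from NEBNext Ultra reagents, per the labels, which do not say that strand was kept. Positions add 1 to the start in the files, and intervals cover 1 library only.

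Entries marked LOWDATA (428) or FAIL (19) were left out. Genes reaching FPKM 1 in a library were tested on log2(FPKM + 1), which understates the change of low genes. In limma 3.58.1 (R 4.3.3) 1 mean for each of 5 groups was fitted over 8 libraries, with a trend and 3 residual degrees of freedom, followed by Benjamini-Hochberg adjustment over 17011 genes. Groups of 1 library were taken to vary as the lines do. No 2 libraries held identical values. Relative depth came from low genes whose deposited interval implies whole fragment numbers (within 0.02). All 10 members are printed for every library. Up to 3 called genes per further list were named by size of change where the higher group averaged FPKM 5 or more, and not every one is printed; 1 list is not reported here. The members and lists were chosen with earlier results of these data known. Alternatives were other pseudocounts (0.1, 5), filters, scalings, no trend, fits on fewer groups and leaving out each line. Tables and figures used pandas 2.3.3, NumPy 2.4.6 and matplotlib 3.10.9 under Python 3.11.15.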

Additional observations from a re-analysis of the deposited data

Results flagged for a closer look

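For 6 members the change in the NSC route differed from the change in the IEC route by the test of the difference itself (limma, adjusted over all genes tested). The NSC route minus IEC route difference of log2(FPKM + 1) was -2.70 ± 0.26 (SE) for Notch1, with an adjusted p of 0.00294. It was 2.17 ± 0.20 for Notch2 (adjusted p = 0.00267), the member with the opposite sign. For Hes5 it was -4.66 ± 0.59 (adjusted p = 0.00678), where IEC and IEC-CiPSC line 10 were listed at 0. Hes5 entered the tests through the NSC library on which this difference rests, so it is given as a description, and with a pseudocount of 0.1 it was not called (adjusted p = 0.0901). For Hey1 it was -4.42 ± 0.69 (adjusted p = 0.0121). For Jag1 it was -2.37 ± 0.46 (adjusted p = 0.0218). For Hes1 it was -1.55 ± 0.40 (adjusted p = 0.0473), and this call was lost in 7 of its alternatives. All of these rest on 1 library of NSC and 1 of IEC, and the markers of other cell types in the IEC library move with them; their part was not tested.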

How the results depend on the processing

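In NSC-CiPSC lines against NSC the 5 called members passed under every alternative run. Other counts moved. With log2(FPKM + 0.1), 1 member (Dll3) was called between NSC-CiPSC and IEC-CiPSC lines. With quantile normalization 6 members were called in the IEC route, and the median of all genes became -0.14 for the route difference and 0.13 for NSC against IEC. With log2(FPKM + 5), 3 members passed in NSC against IEC, and all-gene counts were 4109 (NSC route), 4780 (IEC route), 257 (NSC-CiPSC against ESC), 326 (IEC-CiPSC against ESC), 325 (NSC-CiPSC against IEC-CiPSC), 3407 (route difference) and 1110 (NSC against IEC). Fits limited to their own groups called 202 (NSC-CiPSC) and 123 genes (IEC-CiPSC) against ESC. Leaving out 1 line gave 187 to 720, 153 to 890 and 99 to 789 genes for NSC-CiPSC against ESC, IEC-CiPSC against ESC and NSC-CiPSC against IEC-CiPSC, and 3 to 7 members for the route difference. The cause was not tested.

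Sign changes arose only in differences that were not called. Hes1 in NSC-CiPSC lines against NSC became 0.0011 (log2(FPKM + 5)), 0.10 (quantile) and 0.087 (upper quartile), and ran from -0.13 to 0.18 when 1 line was left out. Dll1 there became 0.22 (quantile) and 0.061 (upper quartile), and ran from -0.18 to 0.090. Hey1 in the IEC route became 0.14 (quantile). When 1 line was left out, Hes1 in NSC-CiPSC against ESC ran from -0.29 to 0.014, Notch3 in NSC-CiPSC against IEC-CiPSC from -0.038 to 0.35, Hey1 there from -0.022 to 0.53, and Notch3 in IEC-CiPSC against ESC from -0.081 to 0.30. Dll1 and Dll3 were not tested with the filter at FPKM 5. No paired analysis was possible because the labels give NSC, IEC and ESC no replicate number, and the line numbers of NSC-CiPSC (1, 2, 3) and IEC-CiPSC (10, 13) have none in common. FPKM holds no read counts, so counting error of low members such as Hes5 and Dll3 is known only through the deposited intervals.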
